A study of Mus musculus with 8 samples.

Results

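The mitochondrial genome RNAs examined here are the 2 ribosomal RNAs mt-Rnr1 and mt-Rnr2 and 8 messenger RNAs, mt-Nd1, mt-Nd2, mt-Co1, mt-Atp6, mt-Co3, mt-Nd4, mt-Nd5 and mt-Cytb. They were chosen by gene symbol, 9 of them from the 13588 genes of the deposited count table. The other, mt-Atp6, was taken by gene identifier from the 53465 genes of the TPM table (a level scaled by transcript length and by the sum over the library). All 9 counted RNAs were among the 13552 genes that passed a filter on low counts.

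The RNA came from BaF3 cells, a mouse pro-B line whose growth normally needs interleukin-3, which in every group carried Jak2 V617F, the activated form of the Jak2 kinase. The cells expressed sh1Ybx1 or sh2Ybx1, short hairpins against Ybx1 (2 libraries each), or the non-targeting hairpin shNT (4 libraries). The libraries were made from column-purified total RNA after selection of polyadenylated RNA on magnetic beads. The labels do not say how many clones or cultures stand behind each group, and p-values therefore rest on the spread among these libraries alone, which may be technical.

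The mitochondrial genome is a small circle transcribed from both strands into long precursors, from which the transfer RNAs are cut out and the rRNAs and mRNAs between them are freed. The rRNAs build the mitochondrial ribosome, and the mRNAs encode core subunits of complexes I, III, IV and of ATP synthase, whose other subunits come from nuclear genes. In human cells most of these mRNAs carry short poly(A) tails, and the rRNAs have only very short ones. Ybx1 encodes a nucleic acid binding protein of the cold shock domain family.

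On GRCm38 all 10 genes lie on the plus strand of the mitochondrial chromosome and have no introns. In genome order they are mt-Rnr1 (ENSMUSG00000064337, chrM:70-1024), which is the small rRNA, mt-Rnr2 (ENSMUSG00000064339, chrM:1094-2675), which is the large one, mt-Nd1 (chrM:2751-3707), mt-Nd2 (chrM:3914-4951), mt-Co1 (chrM:5328-6872), mt-Atp6 (chrM:7927-8607), mt-Co3 (chrM:8607-9390), mt-Nd4 (chrM:10167-11544), mt-Nd5 (chrM:11742-13565) and mt-Cytb (chrM:14145-15288). The genes are packed closely: mt-Atp6 and mt-Co3 share 1 base, mt-Atp6 and mt-Atp8 share 43 bases, and mt-Nd5 shares 14 bases with mt-Nd6, which is read from the other strand. Whether counting used strand is not stated, so reads in that last overlap cannot be assigned with certainty.

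Stretches of 4 of the RNAs are printed here and in the next paragraph. The rRNAs hold internal runs rich in A, the base that bead selection targets in tails, and the 20 bases richest in A are in capitals within these 60-base stretches (GENCODE transcripts, GRCm38, plus strand, chrM:705-764 and chrM:1468-1527).
mt-Rnr1: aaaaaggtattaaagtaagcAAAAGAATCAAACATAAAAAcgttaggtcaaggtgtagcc
mt-Rnr2: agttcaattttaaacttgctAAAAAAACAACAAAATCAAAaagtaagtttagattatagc
These stretches hold 15 and 16 A in 20 bases. Among the mRNAs the richest stretch of that length held between 11 (mt-Co1 and mt-Atp6) and 14 (mt-Nd2) A. The longest unbroken run of A was 5 bases in mt-Rnr1, 7 in mt-Rnr2 and 8 in mt-Nd2. Whether such stretches bear on the levels was not tested.

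Some of the mRNAs have a nuclear copy on chromosome 1, a block of unprocessed pseudogenes on the minus strand between positions 24611535 and 24616197. Gm28437, the copy of mt-Co3, is identical to it over 783 aligned bases. The first 60 bases of both show this, at chrM:8607-8666 (plus strand) and chr1:24613912-24613971 (minus strand), with no base in capitals because none differs.
mt-Co3: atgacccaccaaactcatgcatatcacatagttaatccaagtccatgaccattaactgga
Gm28437: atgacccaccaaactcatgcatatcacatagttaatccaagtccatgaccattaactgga
Gm29216, the copy of part of mt-Co1, matches it at 482 of 483 aligned bases, with the single substitution A1066T (counted from the first base of mt-Co1, whose base comes first). It is in capitals at chrM:6390-6449 (plus strand) and chr1:24616129-24616188 (minus strand).
mt-Co1: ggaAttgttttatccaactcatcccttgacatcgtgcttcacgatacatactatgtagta
Gm29216: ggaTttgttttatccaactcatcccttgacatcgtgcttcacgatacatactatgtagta

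Because of these copies and of sequence shared with other genes, the 10 RNAs differ in how much of their sequence can be assigned to them alone. No window of 75 bases in mt-Rnr1, mt-Rnr2, mt-Nd1 or mt-Cytb occurred in a transcript of any other gene, among 141767 annotated transcripts. In mt-Nd5 1.66% (shared with Gm11407 and Gm4076) and in mt-Nd2 5.71% (shared with Gm13339) of such windows did. The shares were 39.8% in mt-Co1 (Gm29216 and Gm13340), 61.5% in mt-Nd4, 99.5% in mt-Atp6 and 99.9% in mt-Co3. Windows of 50 bases gave 1.04% in mt-Rnr2, 7.61% in mt-Nd5, 8.19% in mt-Nd2, 51.1% in mt-Co1 and 62.2% in mt-Nd4. At that length the share was still 0 in mt-Rnr1, mt-Nd1 and mt-Cytb. Neither the read length nor the treatment of reads with several matches is stated, so values for mt-Co1, mt-Nd4, mt-Atp6 and mt-Co3 are less certain than those for the other 6 RNAs.

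Total counts ran from 22779437 to 37549926 per library. Levels are in CPM, which are counts relative to each library's total after correction by TMM factors. Ybx1 stood at 129.6 and 143 CPM with sh1Ybx1 and 178 and 217 CPM with sh2Ybx1, against 1607 to 1731 CPM in the 4 shNT libraries. The library of shNT replicate 4 stood apart, with a TMM factor of 0.847 where the other 7 libraries lay between 0.993 and 1.06. Of 11 B lymphoid markers 8 had a mean under 1 TPM, among them Pax5 and Ebf1, while Cd79a, Cd79b and Ptprc were present, and all 6 fibroblast markers were at 0 TPM. The 3 tested B lymphoid markers summed to 391.6 and 490.5 CPM with sh1Ybx1, above every shNT library, and to 236.5 and 254 CPM with sh2Ybx1, against 153 to 237 CPM in shNT. Most of that sum was Ptprc, which is common to leukocytes and averaged 402 CPM with sh1Ybx1 and 204 CPM with sh2Ybx1, against 158 CPM in shNT, and its part in the results was not tested. The 6 tested myeloid markers summed to 142 and 171 CPM with sh1Ybx1 and 60.1 and 67.3 CPM with sh2Ybx1. In shNT they summed to 38.4 to 176 CPM. Tested singly for both hairpins against shNT, 3 of the 6 rose and 0 fell (median log2 fold change 1.22). Of the 8 myeloid markers listed, 5 had a mean under 1 TPM. The 4 tested erythroid markers summed to 12.4 and 13.1 CPM with sh1Ybx1 and 21.8 and 23.5 CPM with sh2Ybx1. In shNT they summed to 4.14 to 43.6 CPM, and 0 of the 4 passed for both hairpins. The part of these markers in the results was not tested.

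Lowering Ybx1 was accompanied by higher levels of mitochondrial genome RNAs, with both rRNAs, mt-Nd1, mt-Nd2, mt-Nd4, mt-Nd5 and mt-Cytb passing the test. The rise was 6.83-fold for mt-Rnr2 and 4.08-fold for mt-Rnr1, and between 1.87-fold and 2.50-fold for the 5 mRNAs. In the comparison of both hairpins with shNT, 7 of the 9 counted RNAs were higher at an edgeR adjusted p under 0.05 and 0 were lower. Of all 13552 genes tested, 28.9% were called in either direction and 14.8% as higher. All 9 log2 fold changes were above 0, with a median of 1.24 beside -0.0039 over all genes.

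The 9 counted RNAs together took 4.17% and 2.38% of counts in the sh1Ybx1 libraries, 3.26% and 2.71% in the sh2Ybx1 libraries, and 1.92%, 1.24%, 0.662% and 1.87% in shNT replicates 1 to 4. Every knockdown library was above every shNT library. The rRNAs alone took 0.441%, 0.372%, 0.537% and 0.276% of counts in the 4 knockdown libraries, against 0.0742%, 0.0611%, 0.0276% and 0.0843% in shNT. Their part of the counts on the 9 RNAs was larger too, at 10.2% to 16.5% in the knockdown libraries and 3.87% to 4.93% in shNT. In such bulk samples the number of cells of a type, the number of genome copies per cell and the RNA made from each copy cannot be told apart.

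**Figure D1:**
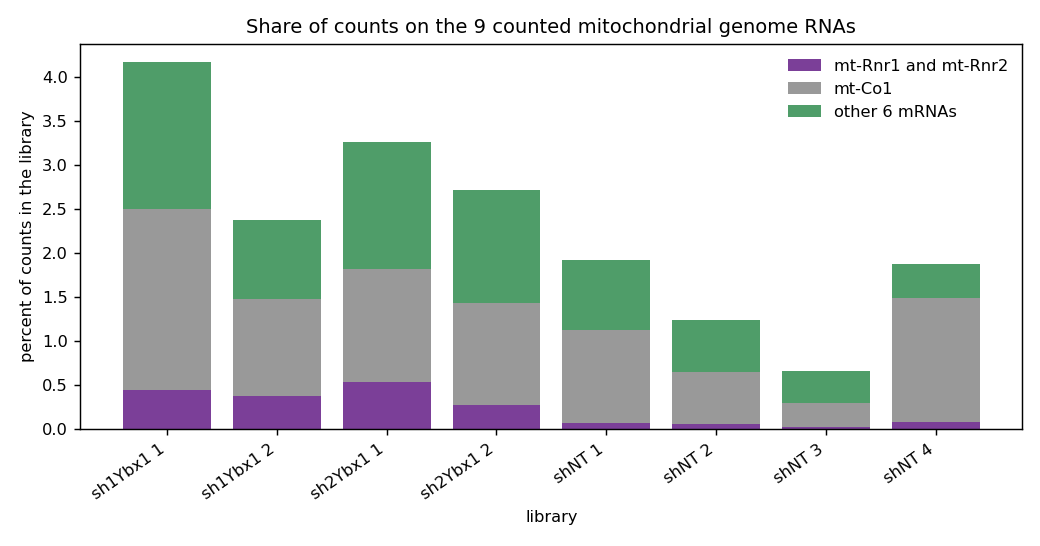
Share of all counts in each library (percent, vertical axis) on mt-Rnr1 and mt-Rnr2, on mt-Co1 and on the other 6 counted mRNAs, stacked, for the 2 sh1Ybx1, 2 sh2Ybx1 and 4 shNT libraries. The 4 knockdown libraries reach 2.38% to 4.17% and the 4 shNT libraries 0.662% to 1.92%.

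mt-Rnr2, the large rRNA, which holds the catalytic centre of the mitochondrial ribosome, stood at 3169 and 2700.5 CPM with sh1Ybx1, 4102 and 1984 CPM with sh2Ybx1, and 505, 420.0, 221 and 604 CPM in shNT. Its lowest knockdown library was more than 3 times its highest shNT library. The log2 fold change was 2.77 (SE 0.357, 95% interval 1.95 to 3.59, edgeR adjusted p = 0.00267), a value reached or passed by 100 of the 13552 genes. This call held when each of the 8 libraries was left out in turn and in all 20 alternatives tried, those included. Each of the other 6 calls was lost without at least 1 library.

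mt-Rnr1, the small rRNA, which decodes the mRNA, stood at 1104 and 905 CPM with sh1Ybx1, 1005 and 605 CPM with sh2Ybx1, and 241, 195, 54.4 and 391 CPM in shNT. The groups did not overlap, and shNT replicate 3 was far below the other shNT libraries. Its log2 fold change was 2.03 (SE 0.512, 95% interval 0.86 to 3.20, edgeR adjusted p = 0.0207). It held in 3 of 8 fits that left out a library, in which the log2 fold change ran from 1.67 to 2.43. The ratio of mt-Rnr2 to mt-Rnr1 counts was 2.87 to 4.08 in the knockdown libraries and 1.54 to 4.05 in shNT, and so overlapped.

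mt-Nd1, whose gene follows mt-Rnr2 and a transfer RNA on the same precursor and encodes a membrane subunit of complex I, stood at 2826 and 1586 CPM with sh1Ybx1, 2789 and 2589 CPM with sh2Ybx1, and 1858, 1494, 836 and 1013 CPM in shNT. Replicate 2 of sh1Ybx1 lay within the shNT range. On the log2 scale the change was 0.91 (SE 0.291, 95% interval 0.24 to 1.57, edgeR adjusted p = 0.0481), just under the threshold. The ratio of mt-Rnr2 to mt-Nd1 counts was 1.12 and 1.70 with sh1Ybx1 and 1.47 and 0.766 with sh2Ybx1, against 0.272, 0.281, 0.264 and 0.596 in shNT. Every knockdown library had a higher ratio than every shNT library.

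The counted complex I mRNAs mt-Nd2, mt-Nd4 and mt-Nd5 also rose. mt-Nd3 and mt-Nd4l are complex I mRNAs of this genome outside the 10 RNAs, read from the TPM table. Neither passed in limma, where only 1 of the 9 counted RNAs did, so they cannot be set against the edgeR calls. On the log2(TPM + 1) scale mt-Nd3 had 0.55 (limma adjusted p = 0.587) and mt-Nd4l 1.09 (limma adjusted p = 0.242). mt-Nd2 stood at 1905 and 1004 CPM with sh1Ybx1, 2292 and 1783 CPM with sh2Ybx1, and 923, 742, 478 and 696 CPM in shNT. Its groups did not overlap, and the log2 fold change was 1.28 (SE 0.267, edgeR adjusted p = 0.0111). mt-Nd4 stood at 1676 and 870.2 CPM with sh1Ybx1, 1225 and 1076 CPM with sh2Ybx1, and 735, 549, 385 and 502 CPM in shNT. Here too the groups did not overlap (log2 fold change 1.16, SE 0.261, edgeR adjusted p = 0.0141).

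mt-Nd5, the largest complex I gene of this genome, stood at 4604 and 2374 CPM with sh1Ybx1, 2796 and 2598 CPM with sh2Ybx1, and 1835, 1187, 574 and 1314 CPM in shNT. The groups did not overlap, and sh1Ybx1 replicate 1 was the highest of all 8 libraries. Its log2 fold change was 1.32 (SE 0.355, edgeR adjusted p = 0.0260). Its neighbour on the other strand, mt-Nd6, which is not among the 10 RNAs, had a log2 fold change of 1.53 (SE 0.368, edgeR adjusted p = 0.0174). The ratio of mt-Nd6 to mt-Nd5 counts was 0.221 to 0.255 in the knockdown libraries and 0.189 to 0.213 in shNT.

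mt-Cytb, the only subunit of complex III encoded in mitochondria, stood at 5067 and 2852 CPM with sh1Ybx1, 4584 and 3941 CPM with sh2Ybx1, and 2636, 2019, 1350.1 and 939.8 CPM in shNT. The groups did not overlap, although sh1Ybx1 replicate 2 and shNT replicate 1 were close. The change was 1.24 on the log2 scale (SE 0.338, edgeR adjusted p = 0.0271).

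**Figure D2:**
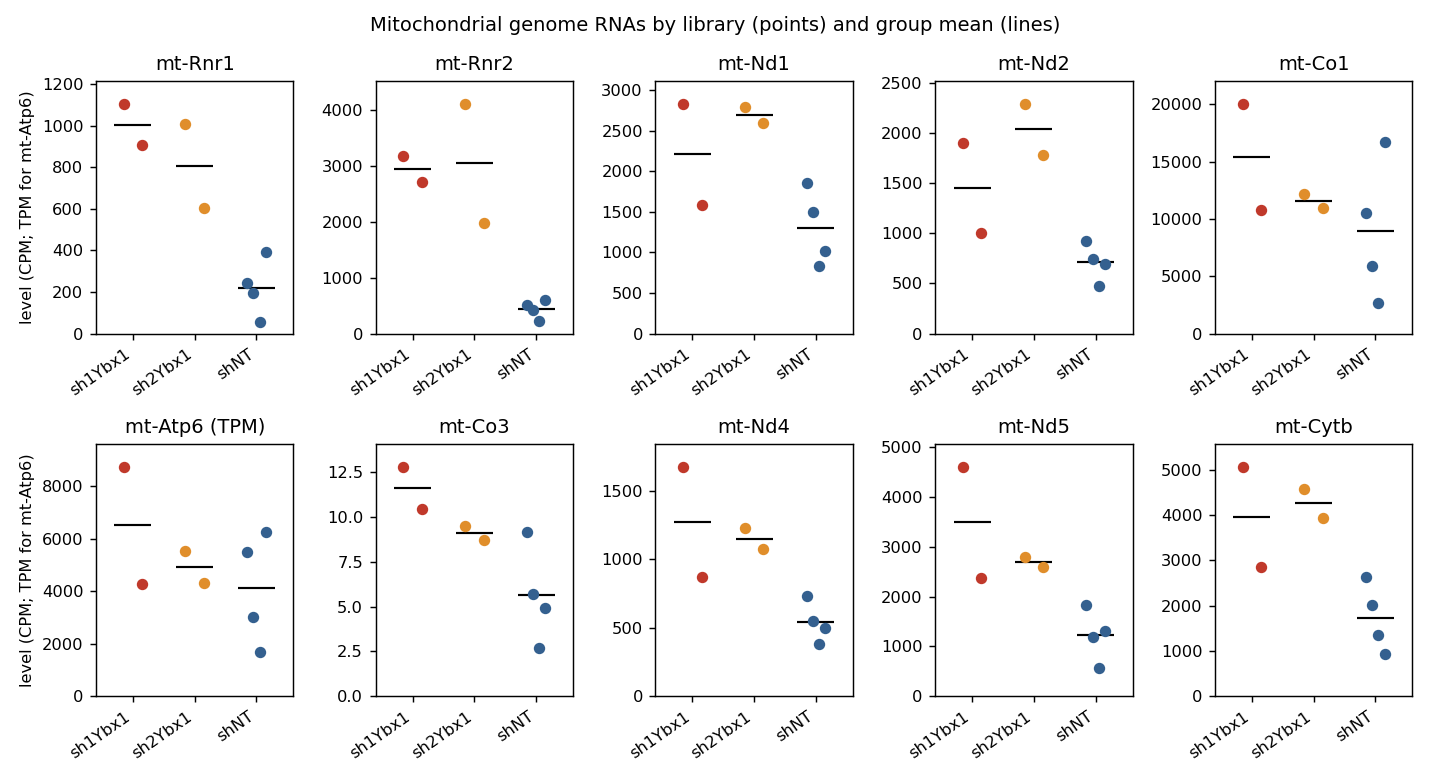
Level of each of the 10 RNAs in each library (points) with the group mean (lines), in CPM and for mt-Atp6 in TPM, for sh1Ybx1, sh2Ybx1 and shNT. mt-Rnr2 lies between 1984 and 4102 CPM in the knockdown libraries and between 221 and 604 CPM in shNT, while mt-Co1 and mt-Atp6 overlap between the groups.

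Neither counted complex IV subunit passed in the main edgeR fit of all 8 libraries, while both passed in the fit with a replicate block described at the end. mt-Co1, which encodes the catalytic subunit of cytochrome c oxidase, stood at 20017 and 10762 CPM with sh1Ybx1, 12145 and 10915 CPM with sh2Ybx1, and 10536, 5873, 2688 and 16663 CPM in shNT. The spread within shNT was 6.20-fold between the lowest and the highest library, and shNT replicate 4 lay above 3 of the 4 knockdown libraries. The log2 fold change was 0.58 (SE 0.503, 95% interval -0.58 to 1.73, edgeR adjusted p = 0.417). Without shNT replicate 4 it was 1.04, the highest of its leave-one-out values (edgeR adjusted p = 0.0585).

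The composition of shNT replicate 4 was unlike that of the other libraries. There mt-Co1 took 75.3% of the counts on the 9 RNAs, against 39.2% to 49.6% in the knockdown libraries and 40.8% to 54.7% in the other shNT libraries. The ratio of mt-Cytb to mt-Co1 counts was 0.0564 in that library and between 0.250 and 0.502 in the other 7. Its mt-Cytb level, 939.8 CPM, was the lowest of all 8 libraries. In shNT replicate 3 all 9 counted RNAs except mt-Cytb had their lowest level.

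**Figure D3:**
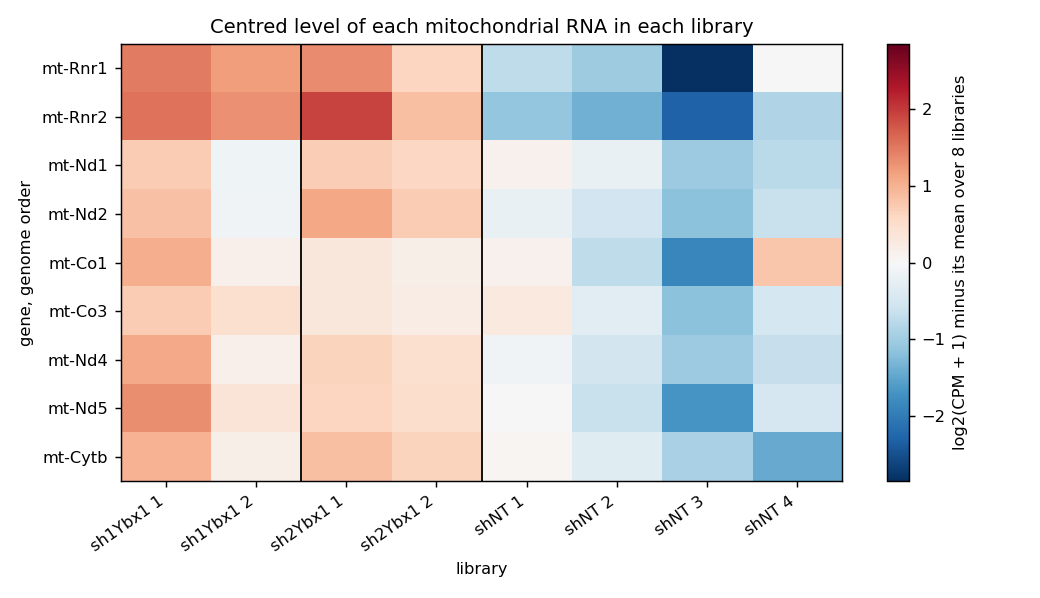
Each counted RNA (rows, genome order) in each library (columns, sh1Ybx1 and sh2Ybx1 left of shNT) as log2(CPM + 1) minus its mean over the 8 libraries. mt-Co1 in shNT replicate 4 is above its mean by 0.78, while mt-Cytb there is at -1.44, and shNT replicate 3 is below the mean for every RNA.

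mt-Co3, which encodes another core subunit of complex IV, had only 102 to 301 counts per library. It stood at 12.8 and 10.4 CPM with sh1Ybx1, 9.49 and 8.70 CPM with sh2Ybx1, and 9.18, 5.70, 2.70 and 4.93 CPM in shNT. Replicate 1 of shNT lay within the knockdown range. The log2 fold change was 0.87 (SE 0.333, 95% interval 0.11 to 1.63, edgeR adjusted p = 0.0822), while the authors' deposited table gives 1.01 with an adjusted p of 0.0465. With DESeq2 it passed, at 0.85 (SE 0.347, DESeq2 adjusted p = 0.0424), as it did in edgeR without shNT replicate 1, at 1.17 (SE 0.282, edgeR adjusted p = 0.0290). How the counting treated the sequence it shares with Gm28437 is not stated.

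The TPM table divides that sequence differently. There mt-Co3 was listed at 1339 and 3.14 TPM with sh1Ybx1, 1042 and 4.76 TPM with sh2Ybx1, and 761, 763, 1013 and 5.66 TPM in shNT. The 3 low values fell in libraries of all 3 groups. Gm28437 was listed at 6443 and 4918 TPM with sh1Ybx1, 3840.3 and 5183 TPM with sh2Ybx1, and 4757, 2678, 1143 and 2739.8 TPM in shNT. The copy so held between 53.0% and 99.9% of the summed TPM of the pair. With limma on log2(TPM + 1) the log2 fold change of mt-Co3 alone was -1.72 (SE 2.57, adjusted p = 0.732), opposite in sign to that of its counts. For the pair summed, an analysis added after seeing these values, it was 0.78 (limma adjusted p = 0.287).

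mt-Atp6, which encodes the membrane subunit of ATP synthase that forms part of the proton path, was read from the TPM table only. It was listed at 8738 and 4273 TPM with sh1Ybx1, 5532 and 4302 TPM with sh2Ybx1, and 5508, 3007, 1672 and 6255 TPM in shNT. The groups overlapped, with shNT replicates 1 and 4 inside the knockdown range. On the log2(TPM + 1) scale the fold change was 0.59 (SE 0.466, 95% interval -0.50 to 1.67, limma adjusted p = 0.581, where 1.78% of 18698 genes were called). Summed with Gm10925, which is identical over 678 bases, in the same added analysis, it was 0.71 (limma adjusted p = 0.409). The copy held between 12.7% and 53.2% of the summed TPM of this pair.

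**Figure D4:**
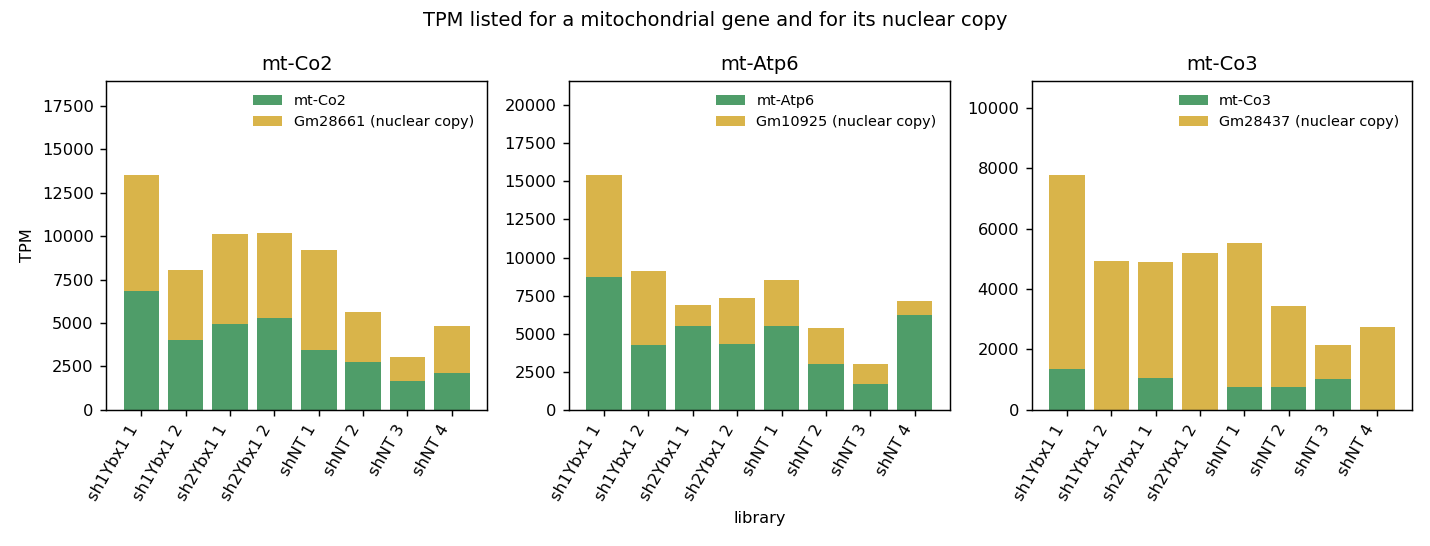
TPM listed for mt-Co2 (not among the 10 RNAs), mt-Atp6 and mt-Co3 and, stacked above, for the nuclear copy of each, in the 4 knockdown libraries and the 4 shNT libraries. mt-Co3 is listed at 3.14, 4.76 and 5.66 TPM in 3 libraries, where its copy Gm28437 holds 99.8% to 99.9% of the sum.

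Counts were listed for 6 nuclear copies, and for Gm28439 and Gm29216 also for the mitochondrial RNA they copy, which had far more counts than its copy in every library. Gm28439, identical to part of mt-Nd4, rose by 1.30 on the log2 scale (SE 0.334, edgeR adjusted p = 0.0223), close to the 1.16 of mt-Nd4. The other 5 did not pass. Gm29216, which differs from mt-Co1 at A1066T, had 0.59 (SE 0.499, edgeR adjusted p = 0.405), close to the 0.58 of mt-Co1. In the TPM table Gm29216 was listed at 0 in all 8 libraries, while mt-Co1 lay at 3051 to 17639.5 TPM.

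On the per-length TPM scale the order of the mean levels in the knockdown libraries was mt-Co1, mt-Atp6, mt-Cytb, mt-Nd1, mt-Rnr2, mt-Nd4, mt-Nd2, mt-Nd5, mt-Rnr1 and mt-Co3. In shNT it was mt-Co1, mt-Atp6, mt-Cytb, mt-Nd1, mt-Nd4, mt-Nd2, mt-Nd5, mt-Co3, mt-Rnr2 and mt-Rnr1. In these means over both hairpins the 8 mRNAs kept 1 order, while mt-Rnr2 and mt-Rnr1 stood higher among them than in shNT. The places of mt-Co3 and mt-Atp6 rest on how the TPM table divides the sequence they share with Gm28437 and Gm10925. mt-Co3 averaged 597 TPM in the knockdown libraries and 636 TPM in shNT, where Gm28437 averaged 5096 and 2829 TPM. With sh1Ybx1 alone mt-Nd5 (1936 TPM) lay above mt-Nd2 (1619 TPM), the reverse of sh2Ybx1 and shNT. mt-Rnr2 averaged 2613 ± 697 TPM in the knockdown libraries and 355 ± 103 TPM in shNT (SD, n = 4 each), and mt-Rnr1 averaged 1368 ± 338 TPM and 276 ± 151 TPM (SD, n = 4 each). mt-Co1 averaged 12410.3 ± 3489.7 TPM in the knockdown libraries and 8507 ± 4914 TPM in shNT. Ranges of neighbours in these orders overlapped, except that mt-Co1 lay above mt-Atp6 in the knockdown libraries.

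The base composition of the RNAs, which played no part in choosing them, can be set beside their changes. The rRNAs had the highest A content, 38.2% in mt-Rnr2 and 37.8% in mt-Rnr1, and the highest log2 fold changes, 2.77 and 2.03. mt-Nd2, the mRNA with the most A (36.9%), had 1.28 and mt-Nd5 (34.3%) had 1.32. mt-Co1 had the lowest A content, 29.5%, and the lowest log2 fold change, 0.58, and mt-Co3 (29.8%) the next lowest of both among the 9 counted RNAs. Other RNAs did not follow that order. mt-Cytb, with 31.7% A, had 1.24, above the 1.16 of mt-Nd4 with 34.8% A, and mt-Nd6, with 22.2% A, had 1.53. On the log2(TPM + 1) scale of limma mt-Atp6, with 34.1% A, had 0.59, and mt-Atp8, which is not among the 10 RNAs and has more A than either rRNA (40.7%), also had 0.59. Runs of at least 6 A numbered 4 in mt-Rnr2 and 0 in mt-Rnr1. Among the mRNAs they numbered 3 in mt-Nd2, 2 each in mt-Nd4 and mt-Nd5, and 1 each in mt-Nd1 and mt-Co1. In mt-Cytb, mt-Co3 and mt-Atp6 there were 0. Whether base composition bears on the changes was not tested.

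Of the 9 counted RNAs, 6 had every knockdown library above every shNT library, namely both rRNAs, mt-Nd2, mt-Nd4, mt-Nd5 and mt-Cytb. Over all genes tested this held for 16.6%. Among the calls that passed with all 8 libraries, mt-Nd2 was lost without sh2Ybx1 replicate 1 and mt-Nd4 without replicate 1 of either hairpin. mt-Nd5 and mt-Cytb were each lost in 4 of 8 such fits, mt-Rnr1 in 5 and mt-Nd1 in 6. The direction stayed positive for all 9 RNAs in each of these fits. The number of genes called moved as well. Without shNT replicate 4, 7 RNAs and 6795 of 13512 genes passed. Without sh1Ybx1 replicate 1 it was 2 RNAs and 1296 of 13583 genes, and without sh2Ybx1 replicate 1 it was mt-Rnr2 alone and 1273 of 13584 genes.

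With sh1Ybx1 by itself 4 of the 9 counted RNAs rose, mt-Rnr1, mt-Rnr2, mt-Nd4 and mt-Nd5, and 0 fell, where 11.2% of all genes were called higher and 7.96% lower. The log2 fold change was 2.19 (SE 0.581, edgeR adjusted p = 0.0339) for mt-Rnr1 and 2.75 (SE 0.396, edgeR adjusted p = 0.00461) for mt-Rnr2. For mt-Nd4 it was 1.23 (SE 0.305, edgeR adjusted p = 0.0275) and for mt-Nd5 1.51 (SE 0.412, edgeR adjusted p = 0.0374). mt-Nd2 missed the threshold at 1.04 (SE 0.312, edgeR adjusted p = 0.0509). The lowest value of the 9 was the 0.76 of mt-Nd1. Without sh1Ybx1 replicate 1, which had the higher level of all 9 RNAs in its pair, 0 of the 9 passed in edgeR, where 156 of 13583 genes did. That fit assumes that the lone sh1Ybx1 library varies like the other groups.

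With sh2Ybx1 3 of the 9 rose, mt-Rnr2, mt-Nd2 and mt-Nd4, and 0 fell, where 10.4% of all genes were called higher and 9.45% lower. mt-Rnr2 had a log2 fold change of 2.80 (SE 0.396, edgeR adjusted p = 0.00648), mt-Nd2 1.52 (SE 0.310, edgeR adjusted p = 0.0165) and mt-Nd4 1.08 (SE 0.306, edgeR adjusted p = 0.0415). mt-Rnr1 missed the threshold at 1.87 (SE 0.581, edgeR adjusted p = 0.0550), as did mt-Cytb at 1.30 (SE 0.394, edgeR adjusted p = 0.0513). mt-Co1 had the lowest value, 0.37 (SE 0.606, edgeR adjusted p = 0.696). Without sh2Ybx1 replicate 1, with the same assumption for the lone sh2Ybx1 library, 0 of the 9 passed in edgeR, where 40 of 13584 genes did. Both comparisons share the 4 shNT libraries, so their likeness is not independent.

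Between sh1Ybx1 and sh2Ybx1, 0 of the 9 RNAs passed in edgeR, where 0.524% of all genes did, and 0 had an unadjusted p under 0.05, where 14.0% of all genes did. DESeq2 also called 0 of the 9. mt-Rnr2 differed by -0.05 on the log2 scale (95% interval -1.13 to 1.03), mt-Nd2 by -0.49 (95% interval -1.34 to 0.36) and mt-Co1 by 0.42 (95% interval -1.21 to 2.04). Each of these intervals, that of mt-Co1 included, leaves room for a difference of more than 2-fold. With only these 4 libraries in the fit, 2 of the 9 RNAs passed, a smaller share than the 5620 of 13258 genes that did.

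**Figure D5:**
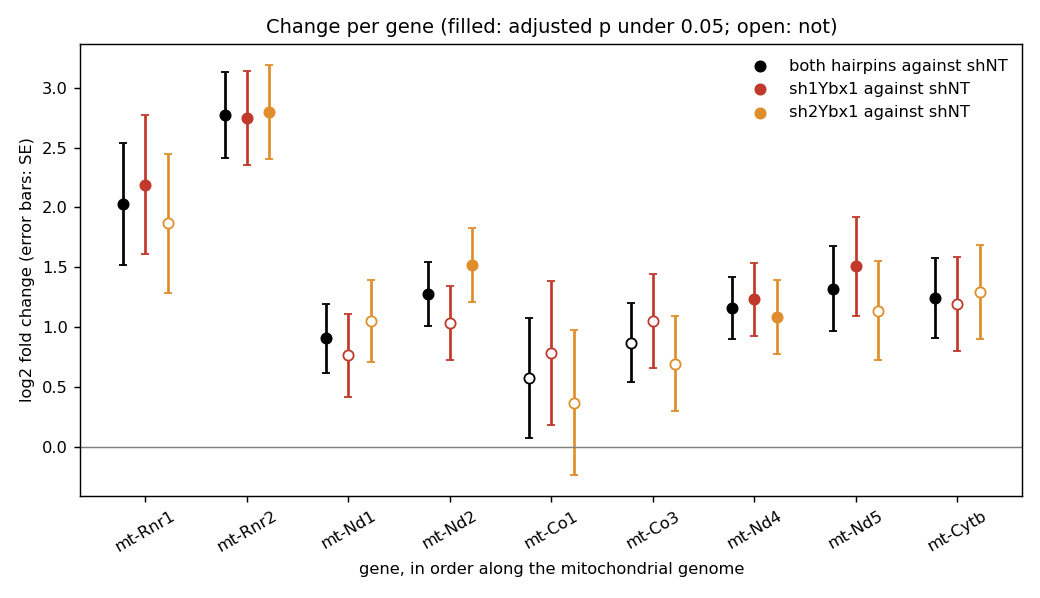
Log2 fold change of each counted RNA (genome order) for both hairpins, sh1Ybx1 and sh2Ybx1 against shNT, with the SE as error bars. Filled points have an edgeR adjusted p under 0.05: 7 of 9 RNAs for both hairpins, 4 for sh1Ybx1 and 3 for sh2Ybx1, with mt-Rnr2 the highest in each.

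The authors' deposited table, which sets knockdown against shNT, gives mt-Rnr2 a log2 fold change of 2.81 with an adjusted p of 0.00119. In the authors' deposited table mt-Rnr1 has 2.30 (adjusted p = 0.0127) and mt-Co1 0.83 (adjusted p = 0.238). That table so differs from the edgeR fit in its call for mt-Co3 alone among the 9.

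The authors' deposited splicing table lists 36 of its 26983 events on the mitochondrial genome, all under the symbol mt-Rnr1. By position 0 of them lie inside mt-Rnr1 and 1 overlaps it, while 13 lie inside mt-Co1, 6 inside mt-Cytb and 13 inside no gene. Their deposited p-values run from 0.349 to 1.00, and 0 of 581 exon bins in the authors' deposited exon table are on this genome. The symbol and the positions of these events so differ, and no value of mt-Rnr1 was taken from them.

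Nuclear genes that serve the mitochondrial genome were counted beside the 14.8% of all genes called higher and the 14.2% called lower for both hairpins against shNT. Of 16 genes of mitochondrial transcription and replication, 1 rose and 1 fell, smaller shares than over all genes (median log2 fold change 0.10, beside -0.0039 over all genes). Polg2, the accessory subunit of the mitochondrial DNA polymerase, rose by 0.71 (edgeR adjusted p = 0.0255), and Top1mt, the mitochondrial topoisomerase, fell by 0.77 (edgeR adjusted p = 0.0149). Tfam and Polrmt were named for their role after their values were seen. Tfam, which packages the genome, averaged 61.6 ± 5.98 CPM in the knockdown libraries and 60.5 ± 19.9 CPM in shNT (SD, n = 4 each). Polrmt, the RNA polymerase of mitochondria, averaged 25.0 ± 4.17 CPM and 25.7 ± 5.44 CPM, and neither passed.

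Of 24 genes of mitochondrial RNA processing and decay, 0 rose and 3 fell, the falls being about the share over all genes. Mtpap, the mitochondrial poly(A) polymerase, averaged 26.0 ± 0.972 CPM in the knockdown libraries and 39.1 ± 3.97 CPM in shNT (SD, n = 4 each, edgeR adjusted p = 0.00944). Grsf1, which binds RNA in mitochondrial RNA granules, fell by 0.68 and Ptcd1 by 0.39 on the log2 scale (edgeR adjusted p = 0.0284 and 0.0393). Lrpprc, which stabilises mitochondrial mRNAs and was named after its value was seen, had -0.45 (edgeR adjusted p = 0.133). Whether these changes bear on the mitochondrial RNAs was not tested.

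Of 21 genes of rRNA modification and ribosome assembly, 2 rose and 1 fell. Mtg2, a GTPase of the large subunit, had a log2 fold change of 0.89, Nsun4, which methylates the small rRNA, 0.53, and Ddx28, a helicase of large subunit assembly, -0.74 (edgeR adjusted p = 0.0105, 0.0396 and 0.00756). Among 81 mitochondrial ribosomal proteins 6 rose and 0 fell, with a median of 0.26. Mrpl52 rose by 1.08 and Mrps21 by 0.83 (edgeR adjusted p = 0.00294 and 0.0114). The share of these proteins called higher lies below the 14.8% of all genes, while both rRNAs passed.

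Of 79 nuclear subunits of oxidative phosphorylation, 16 rose and 4 fell, with a median log2 fold change of 0.39 beside 1.16 for the 7 counted mitochondrial mRNAs. Atp5e, a subunit of ATP synthase, averaged 353 ± 35.5 CPM in the knockdown libraries and 192 ± 42.1 CPM in shNT (SD, n = 4 each). Ndufa7, a subunit of complex I, rose by 0.68 (edgeR adjusted p = 0.00956). Cox6a2, a complex IV subunit best known from muscle, averaged 0.685 ± 0.209 CPM in the knockdown libraries and 12.4 ± 14.4 CPM in shNT (SD, n = 4 each, edgeR adjusted p = 0.0119). Of 32 genes of mitochondrial translation 4 rose and 4 fell. Rmnd1 rose by 0.62 and Aars2, the mitochondrial alanyl-tRNA synthetase, fell by 0.87 (edgeR adjusted p = 0.0103 and 0.0132). Of 7 nuclear regulators of mitochondrial genes 1 rose and 2 fell. These were the nuclear receptor Esrra, with 0.58, and the transcription factors Gabpa and Yy1, with -0.61 and -0.62 (edgeR adjusted p = 0.00644, 0.00958 and 0.011).

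Of 25 genes often used as a measure of mitochondrial mass, 0 rose and 8 fell, with a median log2 fold change of -0.11, where 14.2% of all genes were called lower. Lonp1, the matrix protease, averaged 179 ± 17.0 CPM in the knockdown libraries and 826 ± 280.3 CPM in shNT (SD, n = 4 each, edgeR adjusted p = 0.0016). Hspa9, a matrix chaperone, had a log2 fold change of -1.30, Vdac1, the outer membrane channel, -0.93, and Cs, citrate synthase, -0.72 (edgeR adjusted p = 0.00322, 0.00626 and 0.00463). Mitochondrial DNA was not analysed here.

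RNAs that mostly lack a poly(A) tail were followed beside the rRNAs because the libraries were selected on tails. Of 18 such RNAs, mainly histone mRNAs, 5 rose and 0 fell (median 0.59), where 14.8% of all genes were called higher and 14.2% lower. Hist1h4i had a log2 fold change of 1.16 and Hist1h2al 1.67 (edgeR adjusted p = 0.00385 and 0.00902). Their summed level was 130.3 and 136 CPM with sh1Ybx1 and 65.7 and 76.8 CPM with sh2Ybx1. In shNT it was 43.7 to 83.6 CPM, so that sh2Ybx1 lay within the shNT range. The 3 tested RNAs of a separate list, RNAs retained in the nucleus, summed to 1610 and 2117 CPM with sh1Ybx1. They summed to 1510 and 1873 CPM with sh2Ybx1, against 256 to 1164 CPM in shNT. Malat1, a nuclear RNA without a classical tail, averaged 1255 ± 227 CPM in the knockdown libraries and 300.4 ± 270.2 CPM in shNT (SD, n = 4 each, edgeR adjusted p = 0.0227). The part of poly(A) selection in the rRNA values was not tested.

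Among the 9 counted RNAs, mt-Rnr1 was closest to mt-Rnr2 across the 8 libraries, with a root mean square difference of 0.458 between centred log2 levels. The mRNAs lay 0.795 (mt-Nd5) to 1.08 (mt-Co1) from mt-Rnr2. Of 8532 nuclear genes with a mean of at least 5 TPM, the nearest to mt-Rnr2 were Plac8, Hpn, Il6, Cpa3 and Ttll3, at 0.649 to 0.705, farther away than mt-Rnr1. The mean of the 7 counted mRNAs was nearest to mt-Nd4 (0.117), and among nuclear genes to Bscl2 (0.162), Nudt7, Dpm1, Srgn and Csf2rb2. Each of the mRNAs is part of that mean, which draws it towards them. The mRNAs other than mt-Nd4 still lay farther from it than Bscl2, from 0.204 (mt-Nd1) to 0.539 (mt-Co1).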

How the data were processed

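Counts are the whole-number reads per gene and library that the authors deposited. Per the submitters' processing notes STAR, featureCounts, limma and RSEM were used, without versions or roles, with the builds GRCm38 and mm9. The authors deposited TPM and FPKM values per gene, in tables whose headers use RSEM's column names. The log2 fold changes and p-values of knockdown against shNT in the count table are the authors' own. The splicing table deposited by the authors holds a p-value and a score per event, the difference in percent spliced in.

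Counts were tested with edgeR 4.0.16 in R 4.3.3 (quasi-likelihood test, TMM scaling between libraries, filterByExpr) in 1 fit of 3 group means over 8 libraries, with Benjamini-Hochberg adjustment over 13552 genes and a threshold of 0.05. For both hairpins the contrast is the mean of sh1Ybx1 and sh2Ybx1 minus shNT. Levels are CPM after TMM scaling. Each SE was taken as the log2 fold change over the root of the F statistic, and intervals (95%) used the fit's degrees of freedom. mt-Atp6, absent from the count table, was tested with limma 3.58.1 on log2(TPM + 1), on which fold changes of low genes are understated. DESeq2 1.42.0 was an alternative. The edgeR, DESeq2 and limma steps were tested on simulated data. Count totals of 22779437 to 37549926 per library set the depth behind these values, and leave 102 counts for the lowest of the 9 RNAs.

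The 10 RNAs, the gene lists and the markers were chosen with earlier results of these data known. From each list up to 4 genes with the smallest p are named, and genes alike to mt-Rnr2 or to the mean of the mRNAs by root mean square difference of centred log2(CPM + 1), leaving out numbered symbols. Gene positions and transcript sequences are those of GENCODE on GRCm38. Of 4475 retained introns in the splicing table, 85.9% had a boundary at an exon end of that build. Sequences were compared by windows of 50 and 75 bases and by alignment. Pathway lists, exon counts and transcript tables entered no test.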

Additional observations from a re-analysis of the deposited data

How the results depend on the processing

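The calls of single mRNAs and of mt-Rnr1 depend on the choice of test and on single libraries, while the call of mt-Rnr2 for both hairpins does not. mt-Rnr1 passed for both hairpins in 13 of 20 alternatives. For both hairpins against shNT 7 of 9 RNAs passed in the main analysis, and 8 with DESeq2, mt-Co3 being the other. With limma 3 passed on log2(TPM + 1) or log2(FPKM + 1) with a minimum mean of 1, 2 with a pseudocount of 0.1, and 1 with no filter or with each gene summed with its nuclear copy, a setting chosen after seeing the data. Genes called were 3923 in the main analysis, 2208 with a mean TPM of at least 5, and 429, 322, 382, 332 and 333 in those limma settings. For sh1Ybx1 against shNT 1 RNA passed instead of 4 in each limma setting and with only the groups compared. Genes called were 2601, 1423 with a mean TPM of at least 5, 1372 with only the groups compared, and 199, 196, 154, 218 and 218 with limma. For sh2Ybx1 against shNT 3 RNAs passed, 1 in each limma setting, 6 with total counts in place of TMM and 7 with DESeq2. Genes called were 2692, 1361 with a mean TPM of at least 5, 1349 with only the groups compared, and 157, 55, 148, 138 and 138 with limma. Between the hairpins 71 genes passed, 795 with DESeq2, 5620 with only these libraries (2 RNAs), and 2, 3 and 3 with limma on TPM, on FPKM and with a pseudocount of 0.1.

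Leaving out 1 library at a time gave 1 to 7 RNAs and 1273 to 6795 genes for both hairpins, 0 to 6 RNAs and 156 to 5902 genes for sh1Ybx1, and 0 to 6 RNAs and 40 to 5843 genes for sh2Ybx1. The most genes passed without shNT replicate 4. Between the hairpins it gave 0 RNAs and 0 to 1666 genes. The log2 fold change of mt-Atp6 then ran from 0.22 to 0.85 for both hairpins, from 0.24 to 1.27 for sh1Ybx1 and from 0.055 to 0.69 for sh2Ybx1.

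The sign turned for mt-Co3 on deposited TPM or FPKM. Its log2 fold change was -1.72, -1.51, -1.82 and -1.72 for both hairpins (limma on TPM, on FPKM, with a pseudocount of 0.1, with no filter), -1.75, -1.56, -1.87 and -1.75 for sh1Ybx1 and -1.69, -1.46, -1.76 and -1.69 for sh2Ybx1. Summing it with Gm28437 gave 0.78 for both hairpins. Between the hairpins, where 0 of 9 RNAs passed, the same 4 settings gave mt-Co3 -0.058, -0.097, -0.11 and -0.058 and mt-Nd4 -0.018, -0.071, -0.018 and -0.018, and mt-Rnr2 had 0.033 in the limma settings on TPM. Leaving out a library there gave ranges across 0 of -0.47 to 0.57 for mt-Rnr2, -0.76 to 0.073 for mt-Nd1, -0.40 to 0.54 for mt-Nd4, -0.18 to 0.77 for mt-Nd5, -0.58 to 0.25 for mt-Cytb, -0.099 to 0.80 for mt-Co1 and -0.19 to 0.84 for mt-Atp6. The cause was not tested.

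Replicate numbers were not used to pair the libraries in the main analysis. Deviations of same-numbered libraries correlated at -0.00081 to 0.269 and not all above 0.1. With 2 libraries per hairpin the deviations within a hairpin mirror each other, so these correlations cannot decide whether the libraries are paired. These are the numbers of the sample titles. The sample descriptions number the sh2Ybx1 libraries 2 and 3. By those numbers the correlations of sh2Ybx1 with shNT were -0.269 and 0.211, which cannot decide the pairing either. With a replicate block by title numbers 9 of 9 RNAs passed for both hairpins, mt-Co1 and mt-Co3 included, 8 for sh1Ybx1 and 7 for sh2Ybx1. Genes called were 6653, 6143 and 6087. Between the hairpins 3060 genes passed, and mt-Rnr2 there had 0.019. Numbers 3 and 4 occur only in shNT, so that shNT replicates 3 and 4 no longer count in the comparisons with this block. The setting therefore also differs from the main analysis in its shNT libraries.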
